A study of Saccharomyces cerevisiae with 13 samples.

Results

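Budding yeast (Saccharomyces cerevisiae) passed through mitosis near the start and near the end of a time course that followed release from alpha factor, the mating pheromone that holds MATa cells in G1. The first mitosis was taken as the arrays at 40, 50 and 60 min, and the second as those at 100, 110 and 120 min, so that each array of the first has a partner 60 min later. These are 6 of the 13 arrays of the series. They were chosen by their labelled times alone and were paired as 40 with 100, 50 with 110 and 60 with 120 min. Arrested cells had been released into the rich medium YEPD and sampled every 10 min. RNA of each time point, labelled with Cy5, was hybridised beside Cy3-labelled RNA of an asynchronous culture grown overnight in YEPD. All 6 arrays thus share the pheromone arrest, the release, the medium and the kind of reference. The labels give no strain name, genotype or culture volume, and there was 1 array per time point with no replicates.

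In mitosis the forkhead and Mcm1 factors switch on the CLB2 cluster, whose products drive chromosome segregation and cytokinesis. As cells leave mitosis, Swi5 and its partners switch on the SIC1 cluster, which holds genes for separation of mother and daughter, and G1/S genes, histones and then the next CLB2 wave follow in the new cycle. A culture released from an arrest passes through these waves together at first, and its cells spread out over the cycle with time. The paired arrays show how alike 2 passages through the same stage were, and which transcripts stood at another level on the later one.

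The 6 arrays each held values for 6191 to 6204 of the 6205 open reading frames, and 6129 had a usable value on all of them. Values are log2 ratios, taken as time point over reference. That direction is not stated and is called likely, because the median of 32 pheromone response genes was 2.10 at 0 min. The 0 min array carries another file stamp than the 6 arrays used here, so the direction is carried over from it. With the opposite direction every sign below would turn. The spread of log2 ratios over genes (SD) was 0.35, 0.34 and 0.43 at 40, 50 and 60 min, and 0.32, 0.31 and 0.34 at 100, 110 and 120 min. The titles of all 6 arrays carry the same file stamp. The p-values of the paired test come from limma, which moderates each gene's spread over the 3 pairs with a spread drawn from all genes. That shared part adds 4.92 degrees of freedom to the 2 of the pairs, so it carries more of the weight. The 3 pairs sit at different points of mitosis, so their spread holds differences of stage as well as measurement error.

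The stage named by the times was checked against gene lists for parts of the cycle. The CLB2 cluster (29 genes) had a median log2 ratio of 0.41, 0.57 and 0.56 at 40, 50 and 60 min and of 0.22, 0.38 and 0.50 at 100, 110 and 120 min. It was above the reference on all 6 arrays, and at 80 min, between the windows, it was at -0.23. The histones (9 genes, the core histones and the linker histone HHO1), which mark S phase, had medians of -0.09, -1.07 and -2.04 in the first window and 0.21, -0.39 and -0.95 in the second. They were lower on each later array of both windows, and each array of the second stood above its partner. The array at 100 min had the least mitotic profile of the 6, with the CLB2 cluster only 0.01 above the histones, against 0.50 at 40 min. At the other end the gap was 2.60 at 60 min and 1.45 at 120 min. Against the G1/S replication list the order differed. There the CLB2 cluster stood higher by 0.73, 0.93 and 0.69 in the first window and by 0.29, 0.62 and 0.72 in the second. By that measure 100 min was again lowest, but 50 min was highest. M/G1 genes with early cell cycle boxes or origin loading roles had medians of -0.53, -0.02 and 0.32, then -0.38, -0.13 and 0.17.

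**Figure D1:**
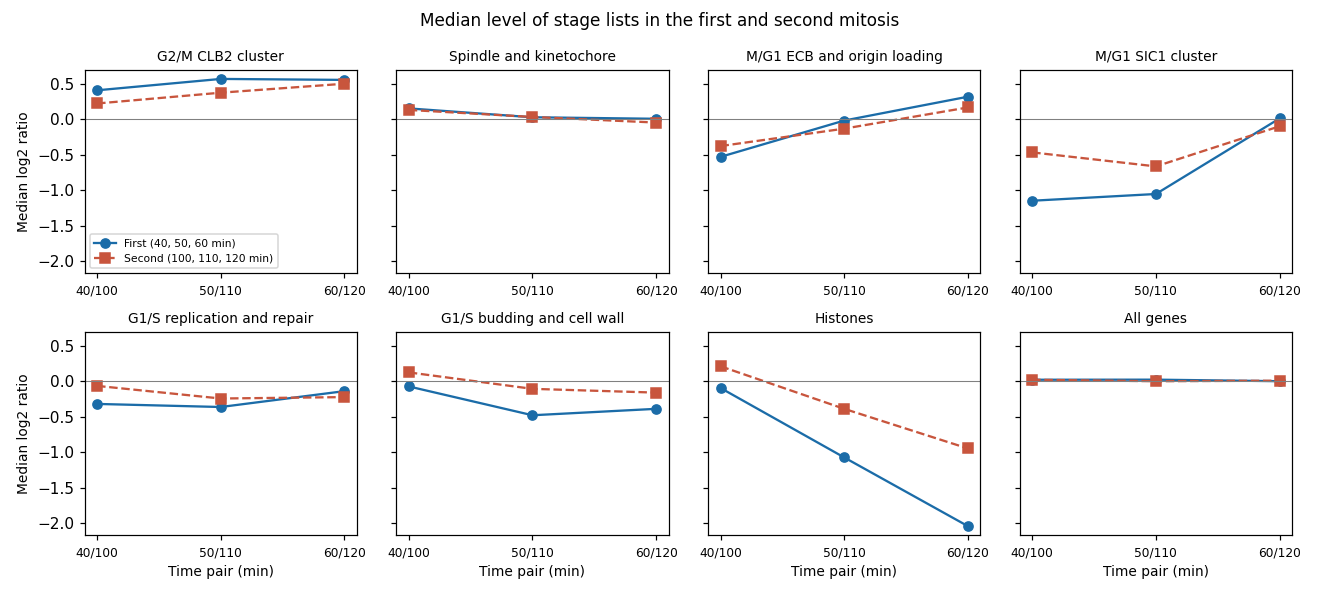
Median log2 ratio (time point over reference, y axis) of 7 stage lists and of all genes at each pair of times (x axis), with circles for 40, 50 and 60 min and squares for 100, 110 and 120 min. The histones run from -0.09 to -2.04 in the first window and from 0.21 to -0.95 in the second, and the CLB2 cluster is above 0 at all 6 times.

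By correlation, arrays a cycle apart resembled each other more in the cycle genes than over all genes. Over the 211 genes of the 7 stage lists, Pearson's r across genes was 0.81 for 40 with 100 min, 0.84 for 50 with 110 min and 0.74 for 60 with 120 min. Its mean was 0.80 at a lag of 60 min, 0.75 over the 2 pairs at 70 min, 0.46 over the 4 pairs at 50 min and -0.33 over the 6 pairs at 30 min. Over all genes r was 0.57, 0.68 and 0.53 for the same 3 pairs, with a mean of 0.59. It was 0.54 at a lag of 50 min and 0.60 at 70 min. By distance the order turned, since stage genes also had the wider spread. The median absolute difference in the 3 pairs was 0.26, 0.25 and 0.27 for the stage lists. Over all genes it was 0.15, 0.14 and 0.19. All 9 arrays from 40 to 120 min were set against the same kind of reference, and these correlations are across genes, which are not independent.

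Taken as 1 set, the ratios of cycle genes lay closer together in the second mitosis. The SD over the genes of the stage lists at 100, 110 and 120 min was 0.60, 0.62 and 0.75 times that at 40, 50 and 60 min (mean 0.66 ± 0.08, SD of 3 pairs). For the 5464 genes in no list the ratios were 0.95, 0.98 and 0.78 (mean 0.90 ± 0.11). The array at 60 min had the widest spread of the 6, in genes of no list too, and the pair that holds it gave the lowest ratio there. For the G1/S replication and repair list the ratio was alike in each pair, with 0.64 ± 0.04. The other stage lists varied more from pair to pair. It was 0.71, 0.60 and 0.99 for the CLB2 cluster and 0.48, 0.62 and 0.92 for the SIC1 cluster. For the spindle list it was 0.94, 0.94 and 0.57, so not every list was narrower in every pair to a like degree. Of the 211 stage genes, 65 (30.8%) were nearer to 0 in the second window in all 3 pairs and 10 (4.74%) were farther, against 17.3% and 13.2% of all genes. With quantile-normalized arrays, which are given 1 spread, the mean ratios were 0.82 for the stage lists and 1.01 for genes in no list. Across the stage genes the paired difference had an r of 0.43 (Spearman's rho 0.49, n = 211) with the level at 80 min, an array outside both windows. It had an r of -0.12 with the level at 70 min and of 0.25 with that at 90 min. With the levels at 0, 10, 20 and 30 min, arrays of another file stamp, r was -0.31, -0.26, -0.09 and -0.18. Spearman's rho there was -0.31, -0.007, 0.20 and 0.18. For genes outside the stage lists r was 0.02 at 80 min, -0.01 at 70 min and 0.12 at 90 min. These points share the reference and the set of genes. No cell counts or DNA content were analysed here, so how far the cells were out of step was not tested apart from the transcripts.

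**Figure D2:**
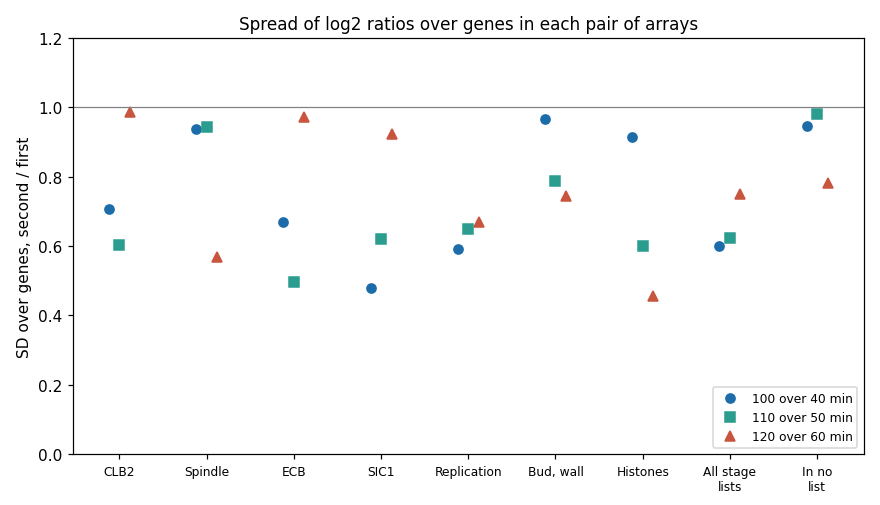
SD of log2 ratios over the genes of each list in the later array divided by that in its partner 60 min earlier (y axis, linear from 0), for 7 stage lists, all stage lists together and genes in no list, with 1 marker per pair. The 3 ratios for all stage lists lie between 0.60 and 0.75, and those for genes in no list between 0.78 and 0.98.

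Gene by gene, 4 of 6129 genes differed between the mitoses (limma's moderated test on the 3 paired differences, Benjamini-Hochberg adjusted p under 0.05). The cell wall genes CWP1 and DSE2 rose and the acid phosphatase genes PHO11 and PHO12 fell. That is 0.0326% of genes in each direction and 0.0653% in either. At an unadjusted p under 0.05 there were 325 higher (5.3%) and 383 lower (6.25%). Without regard to a test, 1008 genes (16.4%) were higher and 1114 (18.2%) lower in all 3 pairs, and 460 (7.51%) and 551 (8.99%) had groups that did not overlap, higher and lower. The median difference over all genes was -0.005. The calls rest on few arrays. With only 2 pairs left limma called no gene without 40 and 100 min or without 50 and 110 min (444 and 500 at an unadjusted p under 0.05), and without 60 and 120 min 3 rose (DSE2, CWP1 and CLN2) and none fell. Over 13 alternative settings CWP1 kept its call in 7, PHO11 and PHO12 in 6 and DSE2 in 3, and no gene was called when the pairing was left out (573 unadjusted).

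PHO12 and PHO11 encode near-identical secreted acid phosphatases that release phosphate outside the cell. PHO12 had log2 ratios of -0.25, 0.32 and 0.66 at 40, 50 and 60 min and of -1.35, -0.76 and -0.46 at 100, 110 and 120 min. It was higher on each later array of both windows, and every array of the second lay below every array of the first. The difference was -1.10 ± 0.10 (limma's moderated SE, n = 3 pairs), or 2.15-fold lower, with a limma adjusted p of 0.0328. For single genes ± gives this moderated SE from here on, which is not the SE of the gene's own values alone. The SD of the 3 differences themselves was 0.016 for PHO12 and 0.61 for DSE2. PHO11 ran from -0.27 through 0.19 to 0.53 and then from -1.39 through -0.82 to -0.53, again with no overlap. Its difference was -1.07 ± 0.10 (limma adjusted p = 0.0328). Over the 13 alternative settings, which include other lags, the difference ran from -1.47 to -0.65 for PHO12 and from -1.46 to -0.64 for PHO11. Both lie among the outermost 5 genes of a chromosome end, and their spots may share signal, so they may not be separate measurements. The 143 such genes had a median difference of -0.08. In all 3 pairs 37 (25.9%) were lower and 15 (10.5%) higher, against 18.2% and 16.4% of all genes.

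Other genes of phosphate supply gave a mixed picture. PHO3, a further acid phosphatase that is close to PHO5 in sequence, stood at -0.42, 0.40 and 0.73 and then at -1.26, -0.38 and 0.15. It was lower in all 3 pairs but with overlapping groups (-0.74 ± 0.11, limma adjusted p = 0.168). Over the 13 settings its difference ran from -1.35 to -0.11. PHO5, the main repressible acid phosphatase and chosen after its values were seen, had -0.44, 0.46 and 0.79 against -0.96, -0.02 and 0.29. PHO89, a sodium-coupled phosphate transporter, stood at -0.02, -0.37 and 0.28 in the first mitosis and at -1.74, -1.19 and -1.37 in the second. The groups were well apart, yet the 3 differences ranged from -1.72 to -0.82 and the adjusted p was 0.121. PHO84, the high-affinity phosphate transporter, had 0.20, -0.24 and -0.90 against -0.12, -0.50 and -0.33, which overlap, and a difference of -0.01 ± 0.18. PHO81, the inhibitor of the Pho85 kinase that signals low phosphate, lay between -0.15 and -0.03 on all 6 arrays. SPL2, which acts on low-affinity uptake, and VTC3, of the complex that makes polyphosphate, had differences of -0.44 ± 0.11 and -0.30 ± 0.10 with groups apart and adjusted p of 0.272 and 0.353. PHO84, PHO81, SPL2 and VTC3 too were chosen after their values were seen. Of the 27 genes of the phosphate list, 2 fell and none rose by the test (0.0326% of all genes in each direction). In all 3 pairs 13 (48.1%) were lower and 4 (14.8%) higher, against 18.2% and 16.4% of all genes. The median was -0.21.

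CWP1, a mannoprotein of the cell wall, had log2 ratios of -0.32, -0.55 and -1.39 at 40, 50 and 60 min and of 1.03, 0.73 and 0.14 at 100, 110 and 120 min. It was lower on each later array of both windows and, of the 6 arrays, above the reference only in the second, with no overlap. The rise was 1.38 ± 0.11, or 2.61-fold, with a limma adjusted p of 0.0271. DSE2, a daughter-specific glucanase that helps to part daughter from mother, was among the lowest values measured in the first mitosis, at -3.87, -4.10 and -3.73, and stood at -1.23, -2.03 and -2.31 in the second. The rise was 2.04 ± 0.21, or 4.11-fold, and it was larger in the early pair (2.64) than in the late one (1.42). Its adjusted p of 0.049 lay just inside the threshold. The groups did not overlap, and DSE2 was below the reference on all 6 arrays.

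**Figure D3:**
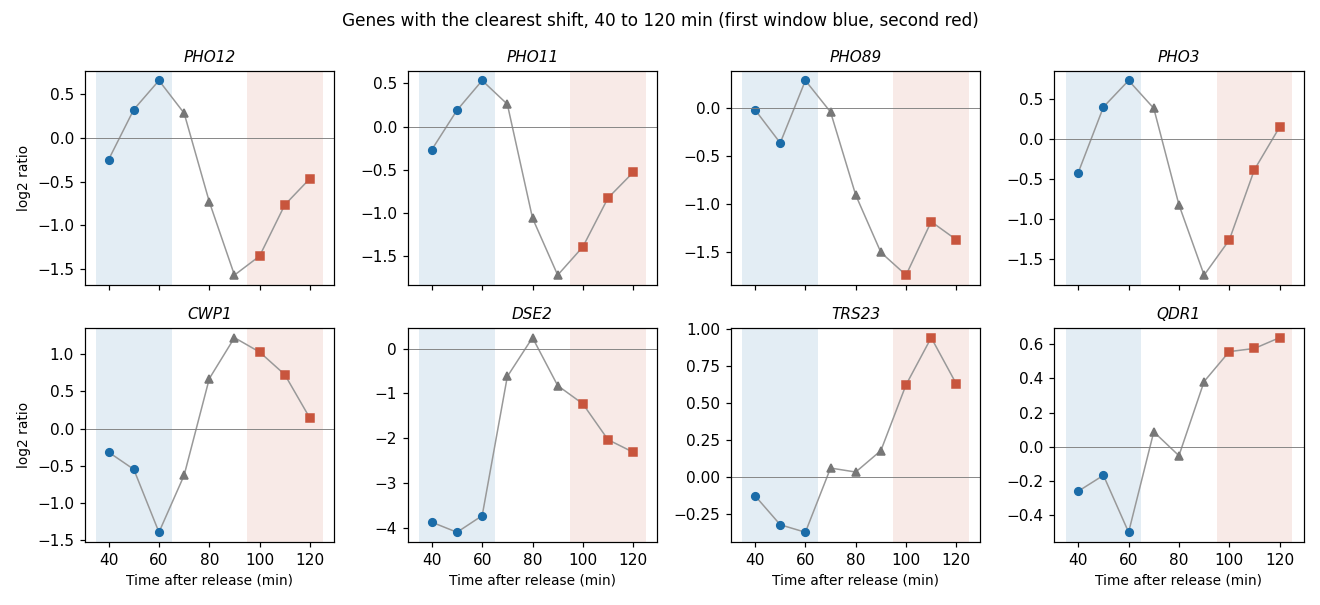
Log2 ratio (y axis, own scale per gene) against time after release (x axis, min) for PHO12, PHO11, PHO89, PHO3, CWP1, DSE2, TRS23 and QDR1, with circles for the first mitosis, squares for the second and triangles for the 3 arrays between. PHO12 and PHO11 have the same shape in both mitoses, with means 1.10 and 1.07 log2 lower in the second, and CWP1 has a mean 1.38 log2 higher.

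Among genes without a call but with the smallest p, TRS23, a subunit of the TRAPP vesicle tethering complex, stood at -0.13, -0.32 and -0.37 in the first mitosis and at 0.62, 0.94 and 0.63 in the second, with 3 differences between 0.75 and 1.26 (adjusted p = 0.121). QDR1, a plasma membrane drug exporter, had -0.26, -0.17 and -0.50 against 0.56, 0.58 and 0.64 (0.90 ± 0.12, adjusted p = 0.121). Both were on opposite sides of the reference in the 2 mitoses. GYP8, a GTPase-activating protein of the Ypt family, had 3 nearly equal differences between 0.61 and 0.66, and EXG1, a wall glucanase, a difference of 0.86 ± 0.12, neither called. The groups of GYP8 and EXG1 did not overlap. In 2 regulators the 120 min array stood far above its partner. CDC20, which turns on the anaphase-promoting complex, was at 2.25 at 120 min against 0.78 at 60 min, and TEC1, a factor of filamentous growth and mating, at 3.07 against 0.67. In the other 2 pairs CDC20 differed by 0.07 and -0.32, and TEC1 by 0.50 and 0.78.

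A slow trend was also fitted over all 9 arrays from 40 to 120 min, as a slope beside a 60 min cosine and sine. It shares 6 of its arrays with the paired test and is not independent of it. Of 6196 genes, 4 rose (0.0646%) and 5 fell (0.0807%) by limma at an adjusted p under 0.05. PHO12 fell by 1.13 ± 0.08 per 60 min (adjusted p = 0.000652), PHO11 by 1.12 ± 0.10, PHO89 by 1.42 ± 0.15 and PHO3 by 0.78 ± 0.09. HXT2, a hexose transporter induced at low glucose, fell by 1.13 ± 0.16 (adjusted p = 0.0427). CWP1 rose by 1.38 ± 0.15 (adjusted p = 0.00642), and QDR1, TRS23 and GYP8 rose by 0.85, 0.91 and 0.63. The slope of PHO12 passed in each of the 9 fits that left out 1 array, and that of HXT2 in none of them. Without the 40 min array no gene rose (277 rising at an unadjusted p under 0.05) and 1 fell.

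The mitotic regulators themselves gave no call. SWI5, the factor for genes of mitotic exit, had 0.67, 0.90 and 0.81 against 0.30, 0.38 and 0.57, lower in each pair without overlap (-0.37 ± 0.11, limma adjusted p = 0.327). HST3, a deacetylase of histone H3, had 1.34, 1.49 and 0.93 against 0.48, 0.75 and 0.93, with a difference of -0.53 ± 0.18 and an adjusted p of 0.353. Its groups touch without overlapping, since 120 min differed from 60 min by -0.003. IQG1, CHS2 and MYO1 of the cytokinesis ring and septum were lower in all 3 pairs, by differences of -0.38, -0.30 and -0.23, with overlapping groups. The B-type cyclin CLB2 had 0.70, 0.80 and 0.43 against 0.33, 0.41 and 0.48, and the polo kinase CDC5 had 0.94, 1.13 and 0.68 against 0.61, 0.40 and 0.81. Both were lower in the first 2 pairs and higher in the last. CLB1, the sister of CLB2, differed by -0.36, -0.14 and 1.16, the last because it was at -0.66 at 60 min. Securin (PDS1) was instead higher in each pair, by 0.23, 0.21 and 0.40, while separase (ESP1) differed by -0.13, -0.26 and 0.05. The forkhead factors FKH1 and FKH2 had mean differences of 0.10 ± 0.15 and -0.13 ± 0.19, their co-activator NDD1 0.05 ± 0.17 and MCM1 0.09 ± 0.10, all with overlapping groups. The kinases ALK1, DBF2 and KIN3 had -0.13, -0.18 and -0.29, the bud site protein BUD4 -0.27 and SPO12, of mitotic exit, -0.16, and each overlapped too.

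By the counts, the CLB2 cluster had no member called (1 higher and 7 lower at an unadjusted p under 0.05) and 9 of 29 lower in all 3 pairs against 2 higher, where 18.2% and 16.4% of all genes were. Its median difference was -0.16, and -0.21, -0.32 and -0.09 in the 3 pairs. One of the 2 was AMN1, which antagonises the mitotic exit network and is also a member of the SIC1 cluster, at -2.18, -2.36 and -0.69 against -1.10, -1.23 and -0.19 (0.91 ± 0.15, adjusted p = 0.188). The 49 spindle and kinetochore genes had a median of -0.03, with 12 (24.5%) lower and 4 (8.16%) higher in all pairs. BIM1, a microtubule plus-end protein, and SPC24, of the Ndc80 kinetochore complex, were the members with the largest difference in each direction among those of 1 sign in all 3 pairs, at 0.43 and -0.37. Neither was called.

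By median, the SIC1 cluster of mitotic exit was less far below the reference in the second mitosis, except in the last pair. The SIC1 cluster (27 genes) had medians of -1.15, -1.05 and 0.01 against -0.47, -0.66 and -0.10. DSE2 was its only call, where 0.0326% of all genes were called higher. In all 3 pairs 9 members (33.3%) were higher and 2 (7.41%) lower, against 16.4% and 18.2% of all genes. The median difference of the cluster was 0.33. The first 2 pairs gave 0.67 and 0.39, but the last gave -0.18. EGT2, a wall protein of cell separation, stood at -3.58, -3.24 and -0.08 against -1.53, -1.96 and -0.61, and ASH1, a repressor deposited in daughters, at -1.91, -1.38 and 1.05 against -0.83, -0.78 and 0.48. Both stood higher at 60 min than at 120 min. SIC1, the inhibitor of Clb kinases, followed the same order, with differences of 0.36, 0.75 and -0.59. SCW11, a glucanase-like wall protein chosen after its values were seen, had -3.07, -2.99 and -1.99 against -1.32, -2.10 and -1.68, higher in every pair with overlapping groups. The chitinase gene CTS1 and the wall protein gene PIR1, also of this cluster, lay between -0.31 and 0.12 on all 6 arrays. For the 12 genes with early cell cycle boxes or origin loading roles the median difference was -0.06. In the 3 pairs it was 0.12, -0.08 and -0.22. Among them CLN3, the cyclin that starts the G1 programme, had -0.23, 0.01 and 0.32 against -0.62, -0.16 and -0.20, lower in every pair (-0.36 ± 0.11, adjusted p = 0.347). SWI4, of the SBF factor, and the helicase subunits MCM3 and MCM5 had mean differences of -0.11, 0.11 and 0.21 with overlapping groups. FAR1, the Cln kinase inhibitor of the mating pathway, had -1.85, -1.17 and -0.04 against -1.23, -0.39 and 0.38, higher in every pair.

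By list median, G1/S transcripts were higher in the second mitosis, except for the replication list in the last pair. The test called 1 of them, CWP1. CLN2, a G1 cyclin, had -1.34, -1.80 and -1.67 in the first and 0.03, -0.54 and -1.17 in the second. Its groups did not overlap (1.04 ± 0.18, adjusted p = 0.217), and the difference was 1.36, 1.26 and 0.50 in the 3 pairs. RNR1, the large subunit of ribonucleotide reductase, had -1.93, -2.18 and -1.62 against -0.92, -1.43 and -1.54, also without overlap, although 60 and 120 min differed by 0.09 only. Its mean difference was 0.61, and 0.08 with quantile-normalized arrays. The cohesin subunit MCD1, chosen after its values were seen, gave 3 like differences of 0.60, 0.54 and 0.54 (adjusted p = 0.236). Of 48 replication and repair genes, 15 (31.25%) were higher and 4 (8.33%) lower in all 3 pairs, against 16.4% and 18.2% of all genes. None was called (11 higher and 2 lower unadjusted, against 5.3% and 6.25% of all genes). The 41 budding and cell wall genes had 20 higher (48.8%), 2 lower (4.88%) and 1 call, CWP1, against 0.0326% of all genes called higher. Their median difference was 0.24, and it was similar in the 3 pairs, at 0.22, 0.22 and 0.19, whereas the replication list went from 0.29 through 0.14 to -0.06.

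The histones were the list with the largest median difference, 0.66. All 9 were higher in all 3 pairs, against 16.4% of all genes. Of them 8 had an unadjusted p under 0.05, where 5.3% of all genes were higher, and none was called. HTB2, an H2B gene, had -0.23, -1.07 and -1.64 against 0.33, -0.32 and -0.98 (0.66 ± 0.10, limma adjusted p = 0.172). HTA2, an H2A gene, had 0.00, -1.15 and -2.64 against 0.31, -0.43 and -0.93, and HTA1, the other H2A gene, had -0.17, -1.27 and -2.48 against 0.15, -0.48 and -1.24. In both the gap was 0.32 in the early pair and 1.71 and 1.24 in the late one, and the groups overlapped. Copies of a histone are alike in sequence and their spots may not be separate. With pairs 70 min apart (40 with 110 and 50 with 120 min) the histone median was -0.06, and with pairs 50 min apart (40 with 90, 50 with 100 and 60 with 110 min) it was 1.28, settings in which the lag and the arrays used both differ.

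**Figure D4:**
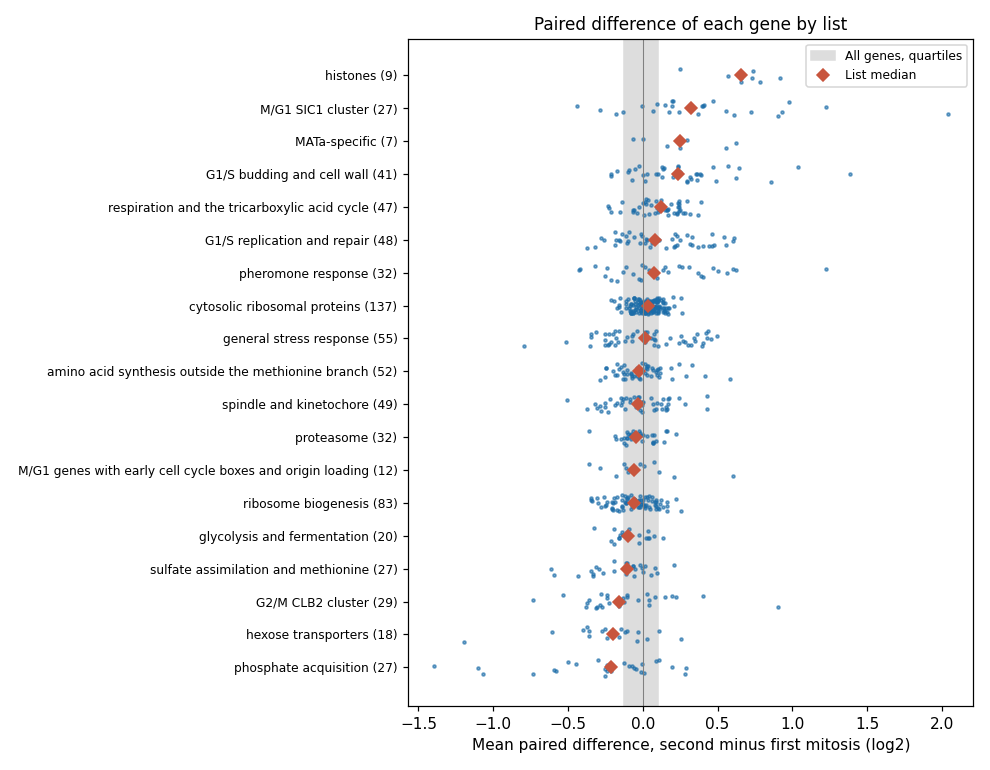
Mean difference of the 3 pairs, second minus first mitosis (x axis, log2), for each tested gene (dots) by list (rows, number of genes tested in brackets), with the list median as a diamond and the quartiles of all genes as a grey band. The histones lie highest, with a median of 0.66, and the phosphate list lowest, with -0.21.

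The cells had been held by alpha factor, and the mating genes were followed for that reason; whether any of the arrest remained was not tested. The MATa-specific genes (7) had medians of -1.31, -0.45 and -0.21 in the first mitosis and -0.93, -0.35 and 0.05 in the second, so they were mostly below the reference in both. None was called (3 higher at an unadjusted p under 0.05, against 5.3% of all genes). In all 3 pairs 4 (57.1%) were higher and none lower, against 16.4% and 18.2% of all genes (median 0.25). BAR1, the protease that destroys alpha factor, had -2.72, -2.02 and -0.27 against -1.86, -1.33 and 0.05 (0.62 ± 0.13, adjusted p = 0.238). STE2, the alpha factor receptor, had -2.17, -1.63 and -1.04 against -1.72, -1.07 and -0.38, and SST2, which turns off the receptor's G protein, had -1.44, -1.32 and -0.91 against -0.88, -0.85 and -0.26. SST2 was the one whose groups did not overlap (adjusted p = 0.236). Its G protein subunit GPA1 differed by 0.54, 0.50 and 0.48, and MFA1, a gene for the a-factor pheromone, by 0.38, 0.05 and -0.43. STE2, SST2, GPA1 and MFA1 were chosen after their values were seen. The 32 pheromone response genes had 11 higher (34.4%) and 7 lower (21.9%) in all pairs, with a median of 0.08. PRM1, a membrane fusion protein, was lower by 3 like differences, with -0.43 ± 0.10 and an adjusted p of 0.257. With pairs 70 min apart (40 with 110 and 50 with 120 min) 11 genes rose by limma, among them BAR1, FAR1, STE2, STE6 and GPA1 of mating and DSE2, EGT2 and SCW11 of cell separation, and 5 fell. That setting has 2 pairs and leaves out the arrays at 60 and 100 min, so lag and arrays changed together. With quantile-normalized arrays the differences of BAR1 and STE2 were 0.04 and 0.09.

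Hexose transporters leaned the other way. HXT2 had -0.09, 0.43 and 0.61 in the first mitosis, 1.18 and 0.95 at 70 and 80 min, and -0.99, -1.32 and -0.32 in the second. Its groups were apart and its paired difference was -1.19 ± 0.18, with a limma adjusted p of 0.168. HXT6, a high-affinity transporter, had 0.37, 1.05 and 0.29 against 0.07, -0.25 and 0.09, and its near-identical copy HXT7 had 0.11, 0.76 and 0.22 against 0.06, -0.21 and 0.12. The groups of HXT6 were apart and those of HXT7 overlapped. In both the largest difference was that of 50 and 110 min, at -1.31 and -0.97. Their spots may share signal, so they may not be separate measurements in the counts below. The low-affinity transporters HXT1 and HXT3 differed by -0.40 ± 0.12 and -0.27 ± 0.16. HXT1, HXT3, HXT6 and HXT7 were chosen after their values were seen. Of the 18 transporters, 6 (33.3%) were lower and 1 (5.56%) higher in all 3 pairs, against 18.2% and 16.4% of all genes. Their median was -0.20 and none was called in the paired test (4 lower unadjusted, against 6.25% of all genes). The median difference was -0.09, -0.37 and -0.17 in the 3 pairs.

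**Figure D5:**
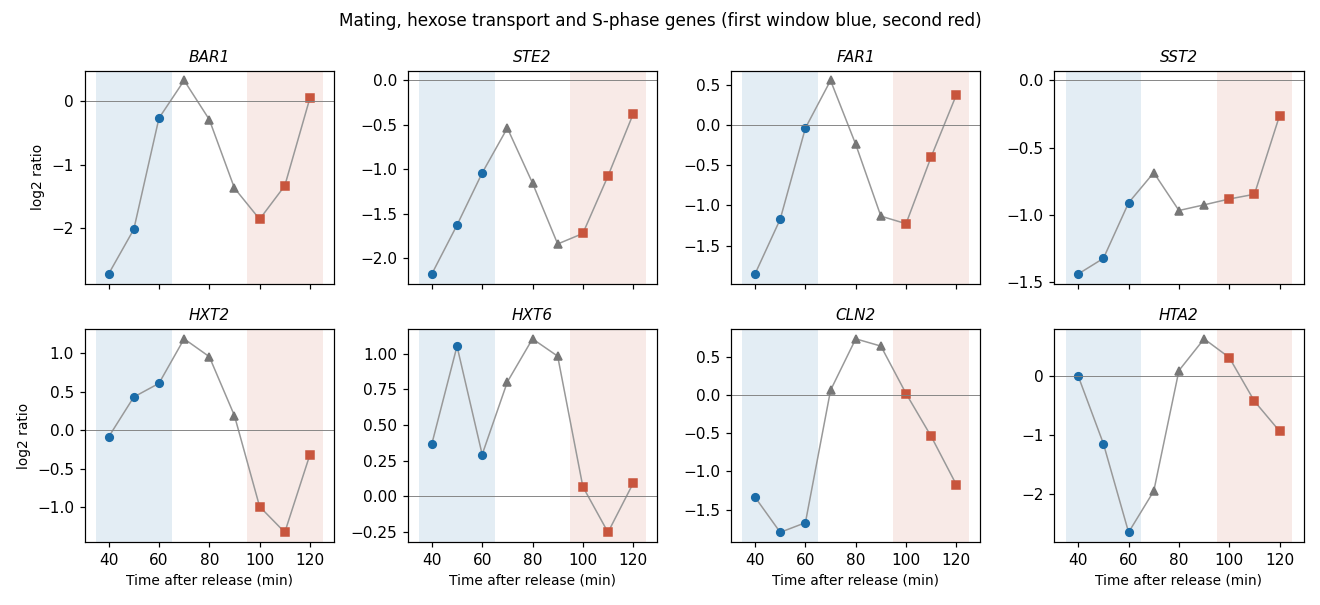
Log2 ratio (y axis, own scale per gene) against time after release (x axis, min) for BAR1, STE2, FAR1, SST2, HXT2, HXT6, CLN2 and HTA2, with circles for the first mitosis, squares for the second and triangles for the 3 arrays between. The mating genes are higher on each later array of both windows and higher in the second window in each pair, HXT2 is below 0 throughout the second, and CLN2 and HTA2 are lower on each later array of it.

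Among the other metabolic lists, respiration and the tricarboxylic acid cycle (47 genes) had a median of 0.12. In it 21 genes (44.7%) were higher and 3 (6.38%) lower in all 3 pairs, against 16.4% and 18.2% of all genes. The groups did not overlap for 15 higher and 1 lower (7.51% and 8.99% of all genes), 8 were higher at an unadjusted p under 0.05, and none was called. SDH1, a succinate dehydrogenase subunit, had -0.03, 0.02 and 0.15 against 0.61, 0.34 and 0.36, and its groups were apart (adjusted p = 0.343). The sulfate and methionine list had a median of -0.10. In all 3 pairs 6 of its 27 genes (22.2%) were lower, near the 18.2% of all genes, and none was higher. In it MET14, the adenylylsulfate kinase, had 1.46, 0.92 and 1.33 against 0.37, 0.63 and 0.87, without overlap (-0.61 ± 0.17, adjusted p = 0.299). The 137 cytosolic ribosomal protein genes had a median of 0.03, ribosome biogenesis -0.06, the general stress response 0.02, the proteasome -0.05, glycolysis -0.10 and other amino acid synthesis -0.02. None of these lists had a called member. Single genes chosen after their values were seen stood apart all the same. FAS1, the beta subunit of fatty acid synthase, had -0.96, -1.11 and -0.69 against -0.28, -0.36 and -0.29, and SIT1, a siderophore transporter, had 1.30, 1.22 and 0.95 against 0.57, 0.47 and 0.57. Neither was called (limma adjusted p = 0.236 for each).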

How the data were processed

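The authors deposited log10 ratios of the 2 channels, with the base read from the values' ends at 2 and -2. How they scanned, corrected and normalized the arrays is not given in the sources used here; the small number of arrays limits the precision. Values of 1.99 or more in size (54 of 37185 on the 6 arrays) were treated as missing, and the rest were multiplied by 3.32 to log2. The 12 control rows were left out, and 5704 of 6205 open reading frames were named through the RefSeq gene table. Paired differences and slopes were tested with limma 3.58.1 in R 4.3.3, with Benjamini-Hochberg adjustment over 6129 and 6196 genes and a threshold of 0.05. The moderated test had 2 residual degrees of freedom plus 4.92 from all genes. Slopes needed at least 8 of 9 values. Lists, medians and plots used Python 3.11.15, pandas 2.3.3, NumPy 2.4.6 and matplotlib 3.10.9. The fits were also run on simulated data with independent normal errors, a setting without the stage differences between the real pairs.

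The members and lists were chosen with earlier results of these data known. The text names 32 fixed cycle genes, the called genes and those with the smallest p on each side, and, of each list with no call, the largest difference in each direction among members of 1 sign in all 3 pairs, some of them in the closing section; other genes are marked as chosen after their values were seen. Alternatives were the treatment of limit values, normalization, shrinkage, lag, period, pairing, the number of pairs needed, leaving out each pair or array, and, added after seeing the data, scaling arrays to 1 spread.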

Additional observations from a re-analysis of the deposited data

How the results depend on the processing

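The 4 calls of the paired test rested on the pairing, the handling of limit values and the shrinkage. No gene was called (limma) without the replicate block, that is as 2 unpaired groups (0 higher, 0 lower, 573 at an unadjusted p under 0.05), with values at the limit kept (0 and 0, 630 unadjusted) or with no shrinkage (0 and 0, 480 unadjusted). The pairing comes from the 60 min spacing. Deviations from the group means correlated at 0.26, 0.01 and 0.23 within the 3 pairs. In the other combinations they ran from -0.24 (40 with 120 min) to 0.08 (50 with 100 min), so the middle pair did not stand out. Quantile normalization, centring on medians, robust shrinkage and scaling to 1 spread (chosen after seeing the data) each gave 1 higher (CWP1) and 2 lower. Lags of 70 and 50 min gave 11 higher and 5 lower, and 1 higher and 3 lower. Leaving out 1 pair gave 0 to 3 higher and 0 lower. The trend fit gave 10 rising at a 65 min period, 0 rising and 0 falling without the cosine and sine (511 unadjusted), 2 rising with limit values kept, 8 rising and 3 falling after quantile normalization, and 0 to 6 rising and 1 to 5 falling with 1 array left out. The cause of these changes was not tested.

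Of the list medians, those at a lag of 70 min were -0.14 for the spindle list, 0.22 for genes with early cell cycle boxes, 0.76 for the SIC1 cluster, 0.094 for budding and wall, -0.059 for histones, 0.21 for pheromone response, 0.49 for MATa-specific genes and 0.035 for chromosome ends. At 50 min they were -0.43 for the CLB2 cluster, 0.063 for the spindle, 0.41 for budding and wall, 1.28 for histones, -0.013 for MATa-specific genes and 0.0042 for ribosomal proteins. Quantile normalization gave 0.090 for MATa-specific genes, 0.18 for respiration and spread ratios of 0.82 (stage lists) and 1.01 (no list). Scaling to 1 spread gave -0.040 for the spindle and 0.21 for budding and wall. With limit values kept the mean r at 60 min was 0.43. With 1 pair left out the spindle median ran from -0.081 to -0.063, budding and wall from 0.21 to 0.25 and ribosomal proteins from 0.021 to 0.054, while the SIC1 cluster ran from 0.09 to 0.57, histones from 0.52 to 0.90, hexose transporters from -0.28 to -0.08, the methionine list from -0.23 to -0.03 and pheromone response from 0.009 to 0.16. The lag of 70 min uses 2 pairs and that of 50 min 3, of which 1 holds the 90 min array, so the arrays differ with the lag.

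Of the genes whose sign turned, none was called at 60 min, and STE6 was called at 70 min. At a lag of 70 min the differences became -0.21 for CLB1, -0.069 for NDD1, -0.35 for FKH1, 0.13 for DBF2, 0.25 for SPO12, 0.027 for SWI4, -0.14 for HTA1, -0.10 for HTA2, 0.12 for PHO5, -0.030 for PHO81 and 0.42 for MFA1. At 50 min they were -0.10 for CLB1, -0.50 for CDC20, 0.12 for ESP1, -0.035 for ASH1, 0.029 for SWI4, -0.20 for MCM3, -0.15 for MCM5 and -0.11 for STE6. Quantile normalization turned ALK1 to 0.045, and centring and scaling turned MFA1 to 0.0049 and 0.031. With 1 pair left out the range crossed 0 for CLB1 (-0.25 to 0.51), CDC20 (-0.13 to 0.77), NDD1 (-0.13 to 0.30), FKH1 (-0.11 to 0.24), FKH2 (-0.43 to 0.066), ALK1 (-0.42 to 0.032), DBF2 (-0.35 to 0.034), SIC1 (-0.11 to 0.56), SWI4 (-0.20 to 0.062), PHO84 (-0.29 to 0.15), PHO81 (-0.023 to 0.032) and MFA1 (-0.19 to 0.21). CLN2 was called without the last pair, and PHO89 at both other lags. Signal over background was not used here.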

Other observations

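The remaining genes with the smallest p or named for their lists also had no call in the paired test, and their differences, second minus first mitosis, are log2 means of 3 pairs with the same sign in each, which members of larger mean difference did not all have. Of those with groups that did not overlap, CMR3 stood at -0.81, -0.55 and -0.63 in the first mitosis. In the second it stood at -0.09, 0.43 and -0.06 (0.76 ± 0.12, moderated SE, limma adjusted p = 0.168). SPR28, a septin known from sporulation, had 0.43, 0.37 and 0.13 against -0.40, -0.94 and -0.45 (limma adjusted p = 0.217). The unnamed frame YFL063W had a difference of -0.71 ± 0.11, with groups apart. BSC1 was far below the reference in both mitoses, with means of -2.82 and -3.51 and overlapping groups.

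ARG1, which makes argininosuccinate in arginine synthesis, was above the reference on all 6 arrays, at 1.07, 1.15 and 0.66 and then at 1.62, 1.60 and 1.40, a difference of 0.58 ± 0.11. LEU9, of leucine synthesis, had -0.28. Among stress genes the repressor XBP1 had 0.49 and PIG2, which binds a phosphatase of glycogen metabolism, -0.35. In the ribosomal protein list RPL7A had 0.26 and RPL31B -0.21, and the ribosome assembly genes MPP10 and GAR1 had 0.22 and -0.35. The others were -0.32 for the clamp loader subunit RFC1, -0.32 for PFK27 of glycolytic control, -0.23 for QCR10 of the respiratory chain, 0.16 and -0.36 for the proteasome subunits RPT2 and RPN2, and 0.11 for the transporter HXT14. Quartiles of the difference over all genes were -0.12 and 0.10.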
